A study of Homo sapiens with 6 samples.

Results

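A set of 10 genes of the smooth muscle contractile apparatus was followed in NCI-H1299 cells, an established human lung cancer line labelled as lung adenocarcinoma. They were picked by name, 10 of the 64253 Ensembl identifiers counted: the actins ACTA2 and ACTG2, the transgelins TAGLN and TAGLN2, the calponins CNN1 and CNN2, the tropomyosins TPM1 and TPM2, the myosin light chain gene MYL9 and the caldesmon gene CALD1. RNA-seq read counts came from 3 libraries of wild type cells and 3 of cells given an mCherry-tagged MTSS1 plasmid, made by a route the labels describe as stable transfection with HEK293T, then kept under hygromycin and sorted by flow cytometry. The overexpressing cells thus differ from the wild type by plasmid, tag, selection and sort together, and no library comes from cells with a control plasmid, so these cannot be told apart. The labels do not say whether the replicates were separate cultures or whether the sorted cells derive from 1 clone, so p-values reflect the spread among these libraries, which may be technical. In bulk RNA, more cells with a transcript and more transcript per cell cannot be told apart.

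In smooth muscle, actin and myosin filaments slide past each other once the myosin light chain is phosphorylated, and tropomyosin, caldesmon and calponin lie along the actin filament and restrain that contact. The transcription factor SRF, with its actin-sensing coactivators of the MRTF family or with myocardin, switches on many of these genes through a 10-base element called the CArG box. Several are also made outside muscle: CNN2, TAGLN2, TPM1 and the non-muscle form of caldesmon belong to the stress fibres of many adherent cells, whereas CNN1 and ACTG2 are largely muscle genes. ACTA2, TAGLN and CNN1 are commonly read as markers of myofibroblasts and of mesenchymal change in tumour cells. MTSS1 itself is an I-BAR protein that binds membranes and actin.

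The CArG boxes upstream of the members are shown because they are the element through which SRF is known to act on many contractile genes. TAGLN and MYL9 had no entry in the RefSeq promoter table and were not searched. The other 8 members had 15 windows (RefSeq, build GRCh38.p14, 250 bases before to 50 after a start), and only the part before the start was searched, on both strands since the element is its own reverse complement. The capitals mark matches with at most 1 mismatch, and positions count back from the start. Over all 35116 windows, 1.16% held an exact match and 16.8% held one with at most 1 mismatch. CNN2 (chr19:1026499-1026548, plus strand, no annotated exon there) had 1 exact match at -89, and ACTG2 (chr2:73892888-73892917 and chr2:73892925-73892954, plus strand, over an exon of another annotated ACTG2 transcript) had exact matches at -110 and -73, and 1 with a mismatch at -239 that is not shown. ACTA2 (chr10:88952815-88952914, minus strand, in an intron of ACTA2 and of the overlapping gene STAMBPL1) had matches with 1 mismatch each at -121 and -71. CALD1 (chr7:134711453-134711498 and chr7:134779384-134779419, plus strand, the first outside annotated genes and the second in an intron of CALD1) had single matches with 1 mismatch at -26 and -244 of different starts. In the windows of TAGLN2, CNN1, TPM1 and TPM2 these letters were not found.
ACTA2: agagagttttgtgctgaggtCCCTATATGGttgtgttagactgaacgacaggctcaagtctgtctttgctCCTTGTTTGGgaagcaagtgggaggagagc
ACTG2 at -110: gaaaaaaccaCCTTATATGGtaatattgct
ACTG2 at -73: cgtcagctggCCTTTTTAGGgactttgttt
CNN2: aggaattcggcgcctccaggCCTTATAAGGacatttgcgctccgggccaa
CALD1 at -26: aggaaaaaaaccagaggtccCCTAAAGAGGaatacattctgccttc
CALD1 at -244: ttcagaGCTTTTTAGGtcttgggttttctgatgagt

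Levels below are in CPM, read counts per 1000000 counts of the library, its size scaled by TMM. Total counts ran from 13883380 to 29479453 per library. MTSS1 stood at 24.18, 17.96 and 24.29 CPM in wild type replicates 1 to 3 and at 550.3, 544.2 and 568.1 CPM in the overexpressing replicates, so every library matched its label. Genes were tested with edgeR's quasi-likelihood test, adjusted over all 16091 genes with enough counts; an adjusted p under 0.05 is a call. Called genes made up 4.28% of those tested. Of the 10 members, 8 could be tested: 1 was higher in overexpressing cells, 0 were lower, and 7 did not pass. At an unadjusted p under 0.05, which 19.8% of all tested genes reached, 1 was higher and 2 were lower, and DESeq2 called 1 higher and 1 lower (7.34% of all genes with a DESeq2 adjusted p). The CPM ranges of the groups did not overlap for 4 of the 8, ACTA2, TAGLN, TAGLN2 and TPM2, against 25.5% of all tested genes. The median log2 fold change of the members was -0.03, and that of all tested genes was 0.0046.

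The sample titles carry numbers, and each wild type replicate has an overexpressing replicate with the next number; whether such libraries were made together is not stated. With neighbouring title numbers as a block in the edgeR fit, 4 members passed: ACTA2 (adjusted p = 0.0024) and CNN2 were higher, and TAGLN and TAGLN2 were lower. In that fit 22.7% of all tested genes were called.

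**Figure D1:**
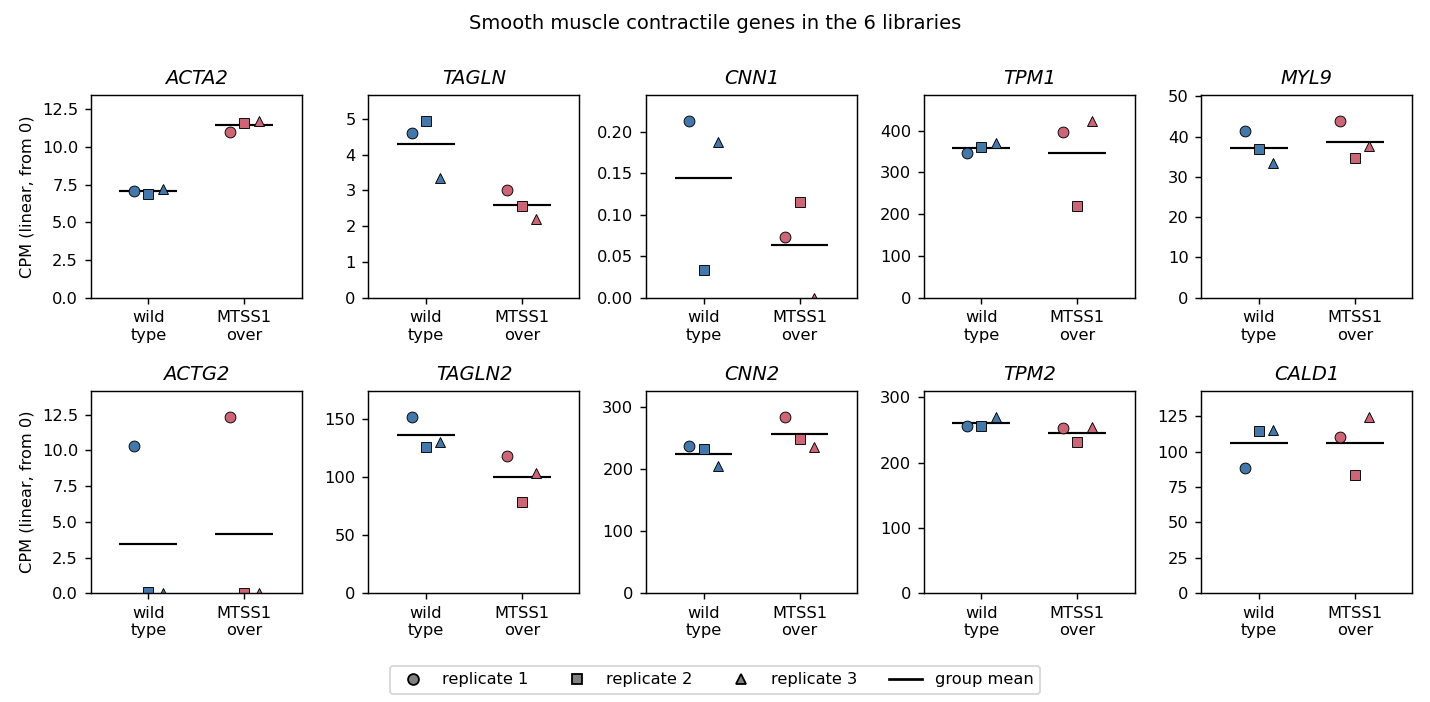
CPM of the 10 members (vertical axes, linear from 0, scaled per gene) in wild type and MTSS1 overexpressing libraries, with 1 symbol per replicate and a bar at each group's mean. ACTA2 separates the groups with little spread, ACTG2 is present in both replicates 1 and near 0 elsewhere, and TPM1 has 1 low library, overexpressing replicate 2.

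Per kilobase of annotated exon, the tropomyosin gene TPM2 was the highest member in wild type cells at 80.3 ± 2.43 CPM per kb (SD, n = 3), followed by CNN2 at 61.5 ± 4.77 and TAGLN2 at 54.7 ± 5.53. TPM1 stood at 27.9 ± 0.910, MYL9 at 13.2 ± 1.40 and CALD1 at 10.8 ± 1.53 CPM per kb. The spreads of CNN2 and TAGLN2, and those of MYL9 and CALD1, overlapped. Far below came ACTA2 at 2.37 ± 0.0550 and TAGLN at 1.10 ± 0.215 CPM per kb, and CNN1 at 0.050 ± 0.034. ACTG2 has no settled place in this order: it stood at 2.70, 0.026 and 0 CPM per kb in the 3 libraries, a mean of 0.909 that falls below that of CNN1 without wild type replicate 1 (0.013 against 0.038). For scale, the cytoplasmic actin genes ACTB and ACTG1 stood at 772.1 and 958.0 CPM per kb. Taking the longest transcript as the length put TPM1 (90.8) above TAGLN2 (84.8) and CALD1 (24.8) above MYL9 (13.2).

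ACTA2 encodes the smooth muscle alpha-actin (ENSG00000107796, chromosome 10, 88935074 to 88991339, minus strand, GRCh38). Its level was 7.05, 6.88 and 7.21 CPM in wild type and 11.02, 11.57 and 11.69 CPM in overexpressing libraries, from 133, 208 and 192 against 150, 301 and 292 reads. Every overexpressing library lay above every wild type library, and the spread within each group was small. The rise was 1.62-fold (log2 fold change 0.70, SE 0.14, 95% interval 0.39 to 1.00, edgeR adjusted p = 0.024). Among libraries with neighbouring title numbers the ratios were 1.56, 1.68 and 1.62. The 50 nearest tested genes on the chromosome had a median log2 fold change of -0.00, and against them ACTA2 still passed (0.70, edgeR adjusted p = 0.035).

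The ACTA2 call needed all 6 libraries. Leaving out any 1 of them, wild type or overexpressing, raised the edgeR adjusted p to between 0.061 and 0.089, while the log2 fold change stayed between 0.68 and 0.73. ACTA2 also overlaps other genes: 26.0% of the 50-base windows of its transcripts occur, on 1 strand or the other, in transcripts of other genes, mainly its antisense gene ACTA2-AS1 (13.2%) and the death receptor gene FAS (11.1%). Such reads are uncertain, since the sources used here do not give the strand setting of the counting. None of the 3 genes that overlap ACTA2 passed: the log2 fold change was 0.21 for FAS (edgeR adjusted p = 0.47), -0.01 for STAMBPL1 (0.98) and 0.11 for ACTA2-AS1 (0.94).

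Across the 6 libraries, the genes nearest to ACTA2 in pattern were MMGT1, BEX3 and GPM6B. Nearness was the root mean square distance of centred log2 CPM, taken over 9225 protein-coding genes averaging 10 CPM or more: it was 0.041, 0.051 and 0.056, against a median distance of 0.37. All 3 lie on the X chromosome, and their log2 fold changes were 0.68, 0.64 and 0.72, while the medians of their own 50 neighbours were 0.31, 0.37 and -0.03.

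ACTG2, the enteric smooth muscle gamma-actin gene (ENSG00000163017, chromosome 2, 73892314 to 73919865, plus strand), followed the replicate and not the group. It had 194, 3 and 0 reads in wild type replicates 1 to 3 and 168, 1 and 0 reads in the overexpressing replicates, or 10.3, 0.0992 and 0 against 12.3, 0.0384 and 0 CPM. Only the 2 replicates 1, whose titles carry neighbouring numbers, held more than 3 reads, and the gene did not pass the filter on low counts. The level in these 2 was 10 CPM or more. A search over all identifiers, made after these values were seen, asked which had at least 1 CPM in both libraries of a pair and at least 5 times the highest of the other 4. It found 39 for replicates 1, of which 35 were processed pseudogenes and ACTG2 was the only protein-coding gene, and 0 for replicates 2 and 0 for replicates 3. Processed pseudogenes as a whole took 0.570% and 0.576% of counts in the replicates 1, against 0.617% to 0.633% in the other 4. Exact 50-base windows of ACTG2 transcripts were shared with other genes for 0.3005%. What sets replicates 1 apart was not tested, and the counts of ACTG2 there are listed values.

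TAGLN encodes transgelin, also called SM22-alpha, an actin-bundling protein of smooth muscle (ENSG00000149591, chromosome 11, 117199321 to 117204782, plus strand). It stood at 4.61, 4.93 and 3.34 CPM in wild type and at 3.011, 2.575 and 2.201 CPM in overexpressing libraries. Each overexpressing library was lower than each wild type one, opposite to ACTA2. The log2 fold change of -0.73 (SE 0.25, 95% interval -1.30 to -0.17 for this gene alone) did not pass over all genes (edgeR adjusted p = 0.14), and did with neighbouring title numbers as a block (adjusted p = 0.027). By DESeq2 TAGLN did not pass (adjusted p = 0.16). The median of its neighbours was -0.21, and against them it did not pass (-0.52, edgeR adjusted p = 0.37). With PCSK7, a gene on the opposite strand, TAGLN shared 9.63% of windows; PCSK7 itself did not pass (-0.16, edgeR adjusted p = 0.63).

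TAGLN2, the transgelin of non-muscle cells (ENSG00000158710, chromosome 1, 159918107 to 159925732, minus strand), stood at 151.7, 126.1 and 130.1 CPM in wild type and at 118.3, 78.6 and 103.5 CPM in overexpressing libraries. The groups did not overlap, and overexpressing replicate 2 was the lowest. Its log2 fold change was -0.44 (SE 0.14, edgeR adjusted p = 0.12; 9.5e-04 with the block, and 0.028 by DESeq2). The 50 genes around it had nearly the same median, -0.39, and against them its own difference was -0.05 (edgeR adjusted p = 0.92). The processed pseudogene TAGLN2P1, which shares 5.84% of TAGLN2 windows, fell by 0.73 on the log2 scale, to 6.22 CPM from 10.2 CPM (edgeR adjusted p = 0.048; chosen after its values were seen). The TAGLN to TAGLN2 ratio of reads, on the log2 scale, was -4.99 ± 0.304 in wild type and -5.25 ± 0.311 in overexpressing cells (SD, n = 3; exact permutation test, two-sided, p = 0.40, adjusted p = 0.80 over 4 pairs), where 3 against 3 libraries cannot go below 0.10. Between libraries with neighbouring title numbers the differences in this ratio were close to each other, at -0.248, -0.250 and -0.266, all toward less TAGLN per TAGLN2 (exact sign-flip permutation test over the 3 pairs, p = 0.25, the smallest that 3 pairs allow).

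**Figure D2:**
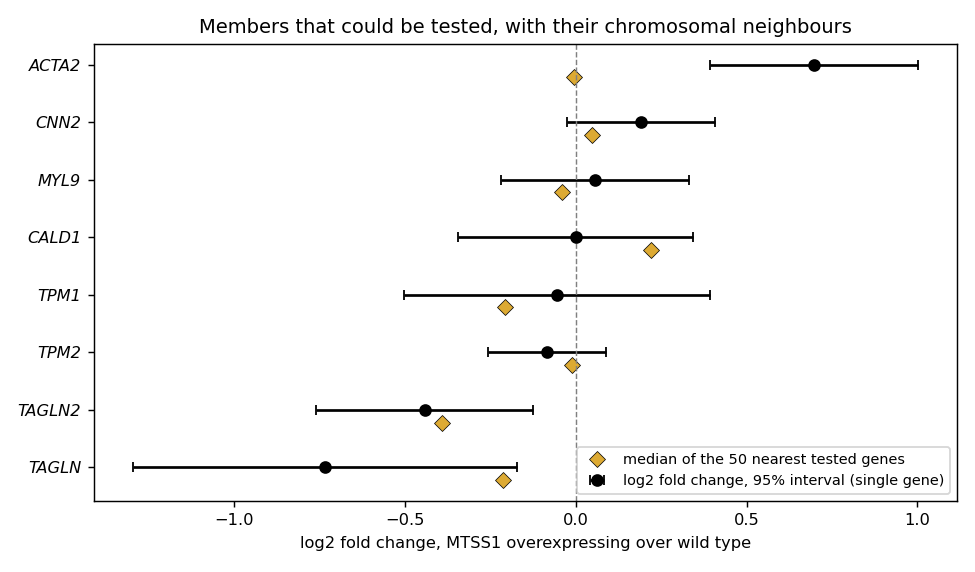
Log2 fold change of the 8 tested members (black points, with 95% intervals for each gene alone) beside the median log2 fold change of the 50 nearest tested genes (diamonds). ACTA2 at 0.70 lies apart from its neighbours at -0.00, whereas TAGLN2 at -0.44 lies close to its neighbours at -0.39.

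The calponins bind actin and tropomyosin. CNN1, the smooth muscle calponin (ENSG00000130176, chromosome 19, 11538717 to 11550323), was close to unread: 4, 1 and 5 reads in wild type and 1, 3 and 0 reads in overexpressing libraries, too few to test. CNN2 (ENSG00000064666, chromosome 19, 1026581 to 1039068) was abundant at 236.4, 232.2 and 204.4 CPM in wild type and 283.6, 249.1 and 235.6 CPM in overexpressing libraries. The groups touched, wild type replicate 1 lying just above overexpressing replicate 3. The log2 fold change of CNN2 was 0.19 (SE 0.10, 95% interval -0.03 to 0.41, edgeR adjusted p = 0.32; 0.017 with the block). It shared 8.51% of its windows with other genes, chiefly an overlapping model with no reads.

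The tropomyosins are coiled-coil proteins laid along actin filaments. TPM2 (ENSG00000198467, chromosome 9, 35681992 to 35690121) stood at 256.8, 255.6 and 269.8 CPM in wild type and at 253.1, 231.1 and 254.1 CPM in overexpressing libraries. The groups did not overlap, though the nearest libraries, at 255.6 and 254.1 CPM, were close, and the log2 fold change of -0.08 (95% interval -0.26 to 0.09) did not pass (edgeR adjusted p = 0.62). TPM1 (ENSG00000140416, chromosome 15, 63042632 to 63071915) stood at 346.8, 361.7 and 369.9 CPM in wild type and at 395.9, 220.7 and 421.9 CPM in overexpressing libraries. Overexpressing replicates 1 and 3 were above every wild type library and replicate 2 was far below them. The log2 fold change was -0.06 (95% interval -0.50 to 0.39, edgeR adjusted p = 0.92) with all libraries and 0.19 without overexpressing replicate 2 (edgeR adjusted p = 0.31). The neighbours of TPM1 on chromosome 15 had a median of -0.21. The log2 ratio of TPM1 to TPM2 reads was 0.43, 0.50 and 0.46 in wild type and 0.65, -0.07 and 0.73 in overexpressing libraries (exact permutation test, two-sided, p = 1), again with replicate 2 alone on the low side.

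MYL9, the regulatory light chain of smooth muscle and non-muscle myosin (ENSG00000101335, chromosome 20, 36541484 to 36551447), did not pass the test, and its groups overlapped. It stood at 41.3, 36.9 and 33.4 CPM in wild type and at 43.8, 34.8 and 37.6 CPM in overexpressing libraries (log2 fold change 0.06, 95% interval -0.22 to 0.33, edgeR adjusted p = 0.86). CALD1, caldesmon (ENSG00000122786, chromosome 7, 134744252 to 134970728), stood at 88.6, 114.4 and 115.0 CPM in wild type and at 110.5, 83.3 and 124.4 CPM in overexpressing libraries. The means were 106 ± 15.1 and 106 ± 20.9 CPM (SD, n = 3), and the log2 fold change was -0.00 (95% interval -0.34 to 0.34, edgeR adjusted p = 0.998), while its 50 neighbours had a median of 0.22. MYL9 and CALD1 shared no 50-base window with another gene, and neither did TPM2.

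**Figure D3:**
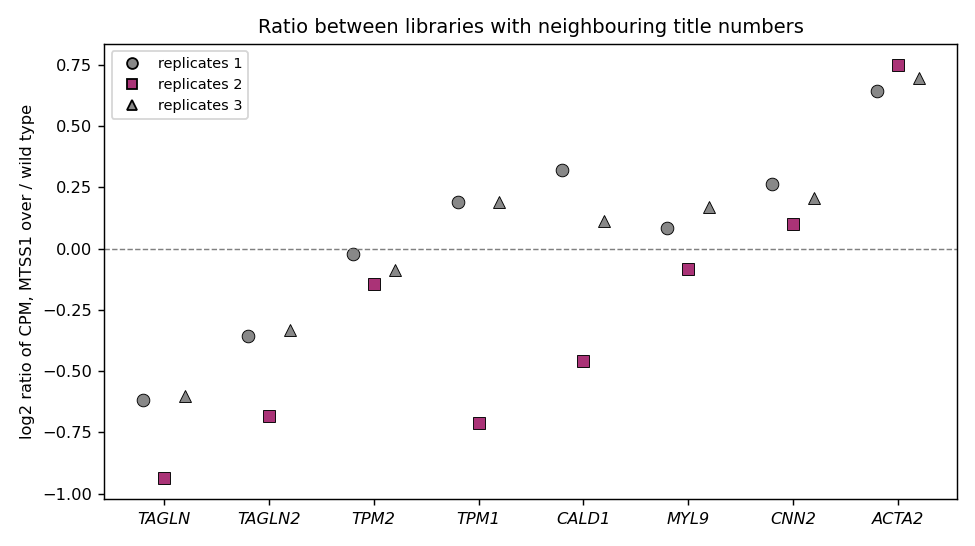
Log2 ratio of CPM, MTSS1 overexpressing over wild type, between libraries with neighbouring title numbers (replicates 1, 2 and 3) for the 8 tested members. ACTA2 ratios lie together above 0, and for the other 7 members the replicates 2 (squares) give the lowest of the 3 ratios.

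Overexpressing replicate 2 was the lowest overexpressing library for 5 of the 8 tested members (TAGLN2, TPM1, TPM2, MYL9 and CALD1), against 34.1% of all tested genes. Of 78 tested genes on the related lists described next, it was the lowest for 43. The immediate early genes FOS, FOSB and EGR1, SRF targets named here after their values were seen, were low in the replicates 2 of both groups: FOSB stood at 110.0, 15.2 and 101.9 CPM in wild type and at 113.5, 21.1 and 108.9 CPM in overexpressing libraries. FOS stood at 28.6 and 34.7 CPM in the replicates 2 and between 81.3 and 115.8 CPM in the other 4, and EGR1 at 55.6 and 40.9 CPM against 97.8 to 163.8 CPM. The part of such differences between libraries in the members' values was not tested. Without both replicates 2, a comparison chosen after these values were seen, 0 members passed by edgeR (2 at an unadjusted p under 0.05), and TPM1 differed by 0.19 on the log2 scale (edgeR adjusted p = 0.30).

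Close relatives of the members were read next, 12 of 15 with enough counts: 1 was higher, 1 lower and 10 did not pass (median log2 fold change 0.02). DESeq2 called 2 higher and 3 lower. For this and the later lists, the shares over all genes, in either direction, were 4.28% by edgeR and 22.7% with the block. They were 7.34% by DESeq2 and 19.8% at an unadjusted p under 0.05. The non-muscle myosin heavy chain gene MYH10 went up from 179.0 ± 6.20 CPM to 248.3 ± 15.5 CPM (SD, n = 3), a log2 fold change of 0.47 with a neighbour median of 0.28 (edgeR adjusted p = 0.014; 0.30 against the neighbours). Another heavy chain gene, MYH14, had 71 wild type reads and 3 overexpressing reads, or 20.2 times as many after scaling for depth (exact 95% interval 6.64 to 100.2, counting error only; edgeR adjusted p = 0.015). Both lost the call without wild type replicate 3 and without overexpressing replicate 2 or 3, at adjusted p from 0.055 to 0.060 for MYH10 and from 0.055 to 0.075 for MYH14. The light chain genes MYL12A and MYL12B, which lie side by side on chromosome 18, had log2 fold changes of -0.35 and -0.30 (edgeR adjusted p = 0.054 and 0.093), and MYH9 of 0.29 (edgeR adjusted p = 0.080). With the block these 3 passed (adjusted p = 0.0011, 0.0011 and 7.2e-04), and by DESeq2 too (adjusted p = 0.0088, 0.039 and 0.017). Against neighbours with a median of -0.21, MYL12A and MYL12B did not pass (edgeR adjusted p = 0.49 and 0.71). MYH9, with a neighbour median of -0.01, did not pass either (edgeR adjusted p = 0.11). ACTB and ACTG1 had log2 fold changes of 0.07 and 0.08. TAGLN3 was listed at 0, and ACTA1 and ACTC1 had too few reads to test.

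Of 18 other smooth muscle markers, 12 were tested: 2 were higher, 1 lower and 9 did not pass (median -0.06). MYLK, the kinase that phosphorylates the myosin light chain, went up from 24.4 ± 1.77 CPM to 37.1 ± 3.51 CPM (SD, n = 3), by 0.60 on the log2 scale (SE 0.11, edgeR adjusted p = 0.023). It still passed against its neighbours (0.57, edgeR adjusted p = 0.040), and kept the call only when overexpressing replicate 2 was the library left out (0.063 to 0.085 in the other 5 fits). A RefSeq window of MYLK at an internal start held 1 exact CArG box at -94 (chr3:123620613-123620662, minus strand, over a MYLK exon). The gene spans 123610049 to 123884331, so this start lies far from its upstream end. Exact matches were also found for FLNA, ACTG1, TPM4, SMTN and SRF. With MYLK, these were the only list genes searched. They were picked by hand, and only their windows with an exact match were kept. The matches therefore say nothing about how common the element is among list genes or called genes. ACTG1, TPM4, SMTN and SRF did not pass (log2 fold changes 0.08, 0.10, -0.11 and -0.07). The actin crosslinker gene FLNA rose by 0.78 (edgeR adjusted p = 0.012; 0.055 without wild type replicate 3), among X chromosome neighbours with a median of 0.68, and against them changed by 0.10 (edgeR adjusted p = 0.78). SYNM, the intermediate filament gene synemin, fell by 0.63 on the log2 scale (edgeR adjusted p = 0.0085), with a neighbour median of -0.34 on chromosome 15, and against these did not pass (edgeR adjusted p = 0.18). The focal adhesion gene VCL did not pass (-0.17, edgeR adjusted p = 0.24; 0.014 with the block). With the block 2 of these markers were higher and 3 lower, and DESeq2 called 2 higher and 1 lower.

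The defining smooth muscle genes were nearly absent. MYH11, the smooth muscle myosin heavy chain, and KCNMB1 had 0 reads in all 6 libraries. LMOD1, DES, CASQ2 and MYOCD, which encodes myocardin, never exceeded 4 reads in a library. Summed over these 6 markers, the level lay between 0.0530 and 0.0992 CPM in wild type and between 0.0400 and 0.231 CPM in overexpressing libraries. Markers of skeletal and cardiac muscle summed to at most 0.430 CPM, with 4 of 7 at 0. The 9 fibroblast markers, of which 0 were at 0 in every library, summed to 5.04 to 7.08 CPM in wild type and 5.21 to 10.3 CPM in overexpressing libraries, overlapping ranges. The 9 epithelial and lung markers summed to 570.7 to 853.1 CPM in wild type and 258.9 to 469.9 CPM in overexpressing libraries. Nearly all of that was 2 keratin genes: KRT8 fell from 164.8 to 49.6 CPM (edgeR adjusted p = 0.011), and the mean of KRT18 was 521.7 CPM in wild type against 299.0 CPM (edgeR adjusted p = 0.061; 4.4e-06 with the block). KRT8 kept the call in 5 of the 6 fits without 1 library (highest edgeR adjusted p = 0.055). NKX2-1, KRT7 and EPCAM lay the other way, with no overlap of the groups, at means of 1.203 and 2.628, 0.857 and 1.77, and 0.557 and 0.881 CPM. None of these 3 passed (edgeR adjusted p = 0.12, 0.16 and 0.44), and NKX2-1 and KRT7 did with the block (adjusted p = 0.022 and 0.042). SFTPB was at 0, CDH1, NAPSA and KRT19 were near it, and 4 of the 9 markers reached a mean of 1 CPM. The 4 endothelial markers summed to 2.45 to 4.62 CPM in wild type and 1.80 to 2.35 CPM in overexpressing libraries. The 4 leukocyte markers gave 1.95 to 3.11 and 1.25 to 2.58 CPM. The part of these marker levels in the members' values was not tested.

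The fixed list of SRF, its coactivators and its targets outside muscle gave no call. The called genes ACTA2, MYLK and FLNA are not on it. Of 21 tested genes, 0 were higher and 0 lower by edgeR (2 and 4 at an unadjusted p under 0.05; 1 and 1 by DESeq2), with a median log2 fold change of -0.01. With the block 2 were higher and 4 lower. By DESeq2 ANKRD1 was the higher gene (adjusted p = 0.044) and FHL2 the lower one (adjusted p = 0.015). SRF itself differed by -0.07 on the log2 scale (edgeR adjusted p = 0.75), and the coactivator genes MRTFA and MRTFB of -0.07 and 0.13 (edgeR adjusted p = 0.81 and 0.54). ANKRD1, a stretch-induced target, stood at 19.0, 16.7 and 22.5 CPM in wild type and at 50.6, 23.6 and 58.0 CPM in overexpressing libraries (log2 fold change 1.18, edgeR adjusted p = 0.051; 4.9e-04 with the block). The lowest of these, replicate 2, lay just above the wild type range. FHL2, CAP1 and WDR1 had log2 fold changes of -0.43, -0.23 and -0.24 (edgeR adjusted p = 0.060, 0.13 and 0.17; 9.5e-04, 0.0047 and 0.0026 with the block). Their neighbours had medians of -0.22, -0.03 and -0.19, and against them none of FHL2, CAP1 and WDR1 passed (edgeR adjusted p = 0.41, 0.27 and 0.89).

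The enzymes that set myosin light chain phosphorylation gave 1 call. Of 18 tested, MYLK was higher, 0 were lower (2 at an unadjusted p under 0.05; 0 by DESeq2) and 17 did not pass, with a median of -0.01. CDC42BPB, RHOC and PPP1R14A had log2 fold changes of -0.17, -0.25 and -0.34 (edgeR adjusted p = 0.23, 0.24 and 0.54). With the block 1 was higher and 2 were lower, CDC42BPB and RHOC (adjusted p = 0.018 and 0.0055). The phosphatase subunit gene PPP1R12A had a log2 fold change of -0.02 and the kinase gene ROCK1 of 0.00.

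TGF-beta induces ACTA2, TAGLN and CNN1 in many cells, and 17 genes of its pathway and response were tested. Of these 0 were higher (0 at an unadjusted p under 0.05; 0 by DESeq2), 2 were lower (7 at an unadjusted p under 0.05; 4 by DESeq2) and 15 did not pass, with a median of -0.10. The receptor gene TGFBR2 went from 82.1 ± 7.82 CPM down to 59.9 ± 6.14 CPM (SD, n = 3), by -0.46 on the log2 scale (edgeR adjusted p = 0.044), and did not pass once any 1 library was left out (0.054 to 0.16). LTBP2, which encodes a relative of the proteins that bind latent TGF-beta, went from 141.2 ± 9.97 CPM down to 97.2 ± 5.19 CPM, by -0.54 on the log2 scale (edgeR adjusted p = 0.011; 0.051 and 0.059 without overexpressing replicate 2 or 3). Both passed against their neighbours (edgeR adjusted p = 0.028 and 0.0095). SMAD3 and SKIL had log2 fold changes of -0.40 and -0.50 (edgeR adjusted p = 0.081 and 0.096; 5.5e-04 and 0.011 with the block). Against their neighbours, with medians of -0.24 and 0.09, SMAD3 and SKIL did not pass (-0.16 and -0.58, edgeR adjusted p = 0.56 and 0.092). By DESeq2 both passed (adjusted p = 0.015 and 0.017). With the block 7 of the 17 were lower and 0 higher. Over all genes, in either direction, 22.7% were called with the block and 7.34% by DESeq2, and 19.8% reached an unadjusted p under 0.05.

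**Figure D4:**
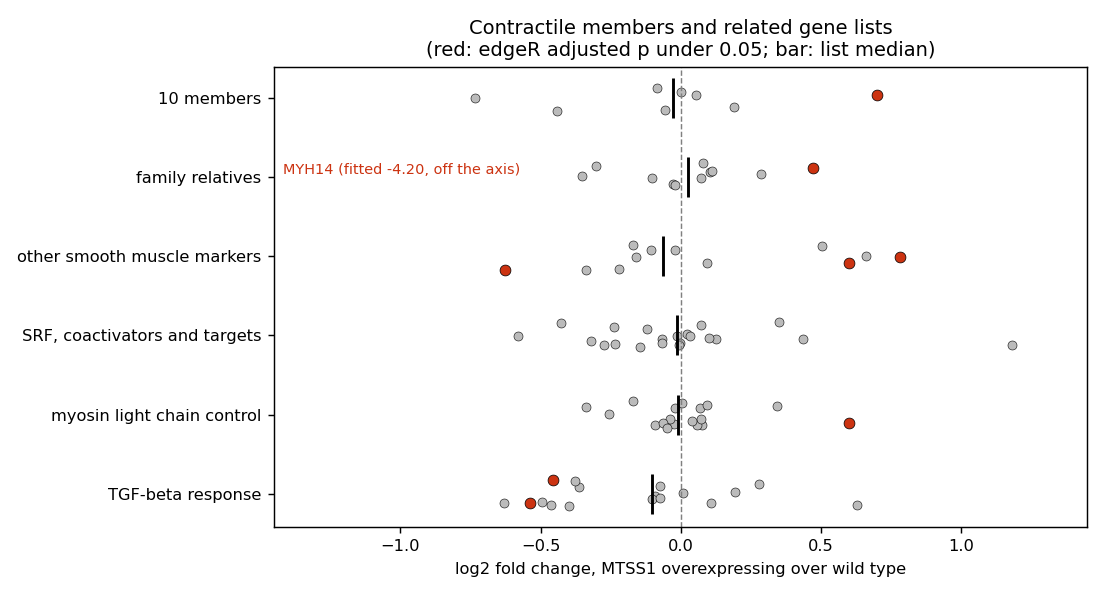
Log2 fold change of each tested gene in the member list and the 5 related lists (horizontal axis; vertical scatter within a list has no meaning), with calls in red and list medians as bars. The list medians lie between -0.10 and 0.02, and ACTA2, MYLK, FLNA and MYH10 are the called genes on the higher side. MYLK is on 2 lists and is plotted in each.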

How the data were processed

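Per the submitters' processing notes, the authors used bcl2fastq, HISAT2 2.1.0 and HTSeq with GRCh38, and deposited whole-number read counts per Ensembl gene. Per the labels' protocols these are poly(A) libraries from a directional kit, read as single reads. Neither the annotation release nor the strand setting is given in the sources used here. Symbols came from a current name table and GENCODE 29, positions and lengths from GENCODE 29 (GRCh38), promoters from RefSeq (GRCh38.p14).

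Counts were fitted with edgeR 4.0.16 in R 4.3.3 (TMM, filterByExpr, quasi-likelihood test, two-sided, Benjamini-Hochberg over all 16091 tested genes). The fit was also run on simulated counts of independent libraries, drawn from its own means and dispersions. Such counts lack the correlation within neighbouring title numbers given below, so they cannot show how the fit behaves with it. Alternatives were DESeq2 1.42.0, other scalings, no filter, left-out libraries, a block for neighbouring title numbers, and an offset by the median of the 50 nearest tested genes. Deviations from the group means correlated at 0.66, 0.34 and 0.38 within neighbouring numbers and between -0.40 and 0.10 otherwise. The labels give no shared batch, so the block is an alternative.

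The members and lists were chosen with earlier results of these data known. The named genes are all members, MTSS1, up to 4 genes per list by smallest adjusted p every called one, and the 3 genes nearest in pattern to a called member; others were chosen after their values were seen. Intervals of read ratios cover counting error only. The biological coefficient of variation was 0.162.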

Additional observations from a re-analysis of the deposited data

How the results depend on the processing

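The ACTA2 rise kept its direction in every alternative run and its call with RLE or total-count scaling, DESeq2, no filter, the block and the neighbour offset; it lost the call whenever libraries were left out. The main count of members passing was 1; it was 2 with DESeq2, 2 with no filter on low counts, 4 with the replicate block, 0 without both replicates 1 (title numbers 2 and 3), 0 without both replicates 2 (title numbers 9 and 10) and from 0 to 0 by edgeR without any 1 library (2 to 3 at an unadjusted p under 0.05; DESeq2 was not run on these). Of the related list genes, 7 passed; 14 did with DESeq2, 17 with no filter, 25 with the replicate block, 4 with the neighbour offset, 1 without both replicates 1, 1 without both replicates 2 and 2 to 5 without 1 library. Of all genes, 688 passed; 1188 did with DESeq2, 1489 with no filter, 3651 with the replicate block, 337 with the neighbour offset, 132 without both replicates 1, 73 without both replicates 2 and 145 to 346 without 1 library. Fits with fewer libraries have fewer degrees of freedom; for the other settings the cause was not tested.

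Signs turned only for members with a log2 fold change near 0. CALD1 was at 0.0013 with RLE scaling, 0.0024 with no filter, 8.1e-04 with DESeq2, 0.20 without both replicates 2 and -0.13 to 0.15 without 1 library. TPM1 was at 0.15 with the neighbour offset, 0.19 without both replicates 2 and -0.22 to 0.19 without 1 library, and MYL9 at -0.031 to 0.13 without 1 library. The difference between groups in the log2 ratio of TPM1 to TPM2 was -0.03, and 0.23 without overexpressing replicate 2 or 0.24 without both replicates 2. That of TAGLN to TAGLN2 lay between -0.42 and -0.09 without 1 library. The ACTA2 to ACTG2 and CNN1 to CNN2 ratios rest on pseudocounts, since several libraries have 0 to 3 reads of ACTG2 or CNN1, and are not printed. At 10 and 4 reads, CNN1 was near 0 in both groups, and a change between them was not tested. No outlier test was run on the groups of 3. Replicates 1 and 2 were singled out from the listed values.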
